A study of Mus musculus with 11 samples.

Results

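The 63 genes described here encode heat shock proteins, other molecular chaperones, calreticulin and HMGB1. They were chosen by annotated symbol: the Hspa, Hspb, Hspd, Hspe, Hsph, Hsp90, Dnaja, Dnajb, Dnajc, Pdia and Cct genes, with Calr, Hsf2 and Hmgb1. A gene also needed a probe with a detection p-value under 0.05, a signal above the negative control beads, on at least 2 arrays. All 63 annotated genes met this, out of 10623 genes with a named probe that did. The genes were carried by 92 probes, and the brightest probe stood for a gene with several, which 23 genes had. Canx, Hsp90ab1 and Hsf1 were not analysed here.

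The 11 samples were subcutaneous MCA fibrosarcomas, tumours of mesenchymal origin, grown in C57BL/6 mice aged 10 to 12 weeks. Tumours of 25 to 45 mm2 were injected with doxorubicin (DX), an anthracycline that damages DNA, at 2.9 mg/kg in PBS, or with PBS alone, and were taken 2 days later. The 4 groups were DX in FPR1-/- hosts (KO DX, 2 tumours), PBS in FPR1-/- hosts (KO PBS, 3), DX in wild-type hosts (WT DX, 3) and PBS in wild-type hosts (WT PBS, 3). The genotype label was that of the mouse, so the lost receptor was that of host cells. The labels did not say whether each tumour came from its own animal, so p-values measured only the spread between these samples, which may be technical. No probe was named Fpr1, and the receptor itself was not analysed here. Total RNA of whole tumours was measured on Illumina mouse bead arrays. Values below are log2 normalized intensities of 1 probe, and differences are log2 differences, where 1 is a fold of 2. In RNA of a whole tumour, fewer cells of a type and less RNA per cell cannot be told apart.

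Heat shock proteins bind unfolded proteins and help them fold or be degraded. In the cytosol, Hsp70 proteins work in cycles with J-domain co-chaperones and nucleotide exchange factors, Hsp90 matures signalling proteins, small heat shock proteins hold aggregating chains, and the CCT ring folds actin and tubulin. In the endoplasmic reticulum (ER), BiP, GRP94, calreticulin and the disulphide isomerases fold secreted and membrane proteins, and the unfolded protein response raises their transcription. Anthracyclines are known for a form of tumour cell death that alerts the immune system. In it calreticulin moves to the cell surface as an uptake signal, HMGB1 leaves the nucleus and reaches TLR4, and annexin A1 reaches formyl peptide receptor 1 on host myeloid cells. Those steps concern where proteins are, and the arrays measured RNA alone.

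Response elements of known kinds were searched in the promoters of these genes, as exact matches to 1 string each. They are shown for the few members with a match. A member without an exact match may still hold a variant of the element. The ER stress response element was searched as CCAAT, any 9 bases and CCACG, the site of NF-Y and ATF6. The heat shock element was searched as GAA, any 2 bases, TTC, any 2 bases and GAA. Both strands were searched. The windows were the 250 bases before each gene start in RefSeq (GRCm38.p6), which held a window for 53 of the 63 members. The ER element was in 37 of 32851 windows (0.113%) and in those of 5 members (9.43%). The heat shock element was in 153 windows (0.466%) and in those of 3 members (5.66%). The percentages of members count genes with a match in any of their windows, so their unit differs from that of the percentages of windows. The 5 with the ER element follow, capitals marking its outer letters, which read CGTGG and ATTGG where the match lies on the other strand. Each line starts 20 bases before the match and runs along the gene's own strand. The genes encode BiP (Hspa5, chr2:34772005-34772063, plus strand), calreticulin (Calr, chr8:84847055-84847113, minus strand), a disulphide isomerase (Pdia6, chr12:17266471-17266529, plus strand), an ER J-domain protein (Dnajc3, chr14:118937807-118937865, plus strand) and GRP94 (Hsp90b1, chr10:86705513-86705676, minus strand, with 2 matches).
Hspa5: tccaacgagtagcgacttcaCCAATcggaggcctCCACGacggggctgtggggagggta
Calr: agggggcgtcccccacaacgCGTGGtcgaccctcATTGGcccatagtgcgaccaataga
Pdia6: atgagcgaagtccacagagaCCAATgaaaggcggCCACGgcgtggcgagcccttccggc
Dnajc3: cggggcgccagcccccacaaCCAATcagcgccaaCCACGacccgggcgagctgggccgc
Hsp90b1: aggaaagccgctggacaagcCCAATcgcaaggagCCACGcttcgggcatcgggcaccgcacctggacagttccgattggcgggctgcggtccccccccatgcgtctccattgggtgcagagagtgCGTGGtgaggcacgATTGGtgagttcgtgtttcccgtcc

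The heat shock element, with its GAA and TTC units in capitals, stood between the divergently transcribed Hspe1 and Hspd1 (chr1:55088039-55088096, Hspe1 on the plus strand), so that both genes share the same bases. It also stood before Dnajb6 (chr5:29735832-29735884, plus strand), a J-domain protein that holds aggregation-prone chains. Hspd1 is given on its own, minus strand.
Hspe1: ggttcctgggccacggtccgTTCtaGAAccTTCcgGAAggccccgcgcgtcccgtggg
Hspd1: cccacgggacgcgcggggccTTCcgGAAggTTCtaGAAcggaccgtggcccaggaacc
Dnajb6: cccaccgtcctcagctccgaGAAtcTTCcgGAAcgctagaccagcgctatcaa

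The arrays detected 35.7% to 40.2% of their probes, and their number limits the precision. Mesenchymal markers were measured on every array, 13 of 13 detected, with a mean log2 level of 11.36 to 11.72 over the list. Leukocyte markers averaged 10.68 to 11.45, while the epithelial list averaged 5.69 to 6.53. Only 2 of the 5 epithelial genes were measured, with 1 or 2 of them detected per array, and Cdh1 was detected on all 11. The arrays lay on 5 BeadChips, glass slides that hold several arrays. Chip 2, with KO PBS 2 and WT PBS 1, was dim, at median intensities of 118 and 110 before normalization, against 151 to 169 elsewhere. No chip held both KO groups. WT PBS 1 had the lowest value of the 11 arrays for 13 of the 63 members and the highest for 11, against 12.7% and 17.3% of all genes.

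Of the 63 members, 56 were detected on all 11 arrays and 58 to 62 on any one array. At the edge of the rule, Hmgb1, Dnaja1 and Hspb3 were detected on 2 arrays each, and no annotated member fell outside it. Dnajc1 was detected on 6 arrays, Dnajb13 on 7, Dnajc14 on 9 and Dnajc12 on 10. The most variable members over the 11 arrays were Hspa1a (SD 0.737), Hspb1 (0.682), Dnajb4 (0.641), Hspa1b (0.630) and Hspa4l (0.473). Hspa1a and Hspa1b each spread by more than 1 log2 within every group of 3 tumours except Hspa1b in WT DX tumours.

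In WT hosts, no chaperone gene passed the threshold in DX tumours against PBS tumours. The member nearest to it was Pdia4, an ER disulphide isomerase, which stood higher in every DX tumour, and Hspb1, the small heat shock protein HSP27, had the widest difference. ER members stood mostly above zero, mitochondrial and CCT members mostly below. Calreticulin RNA differed by 0.11, within the spread of its replicates. By limma with Benjamini-Hochberg adjustment over 10623 genes, 0 of 63 members had an adjusted p under 0.05, against 0.621% of all genes. At an unadjusted p under 0.05 the count was 6 of 63, 3 higher and 3 lower, against 11.7% of all genes. The DX and PBS tumours did not overlap for 4 members, against 13.7% of all genes. Of these, Pdia4 alone was higher, against 6.26% of all genes, and Cct6a, Dnaja3 and Hspa12b were lower, against 7.47%. The median difference was -0.02 over members and -0.03 over all genes. For 54 members (85.7%, against 89.0% of all genes) the 95% interval of the difference lay within 1 log2 of zero on both sides, so a 2-fold change was outside it.

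Pdia4 had 11.80, 11.76 and 12.00 in WT DX tumours, against 11.30, 11.57 and 11.21 in WT PBS tumours. All 3 DX values lay above all 3 PBS values. The difference was 0.49 (SE 0.135, 95% interval 0.19 to 0.79), with a limma adjusted p of 0.173. It was 0.79 between the 2 arrays that shared a chip, and 0.75 with the chip as a fixed block (limma adjusted p = 0.0883). Leaving out 1 array at a time gave 0.42 to 0.60. With both the chip block and no background correction, a fit added after the data were seen, it was 0.72 with an adjusted p of 0.0162.

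Calreticulin, the ER lectin chaperone, gave 11.01, 11.37 and 11.09 for Calr in WT DX tumours, against 11.07, 11.08 and 10.97 in WT PBS tumours. The groups overlapped, and 1 DX tumour stood apart above the rest. The difference was 0.11 (SE 0.140, interval -0.19 to 0.42, adjusted p = 0.793). Without that tumour it was 0.01.

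BiP, the ER Hsp70, is the usual readout of the unfolded protein response. Its gene Hspa5 stood at 8.72, 8.94 and 8.87 in WT DX tumours, against 7.46, 9.14 and 8.58 in WT PBS tumours. The PBS tumours spanned the DX tumours, with WT PBS 1 far below the others. The difference of 0.45 (SE 0.347, adjusted p = 0.655) became -0.02 without WT PBS 1. GRP94, the ER Hsp90, gave Hsp90b1 values of 13.90, 13.77 and 13.75 in WT DX tumours, against 13.57, 14.10 and 14.10 in WT PBS tumours. Here too the groups overlapped, and the difference was -0.12 (SE 0.166, interval -0.49 to 0.24). The other disulphide isomerases, which form and shuffle disulphide bonds, differed by 0.16 for Pdia3, a partner of calreticulin, 0.22 for Pdia5 and 0.17 for Pdia6. In all, 6 of 7 ER members stood above zero, with a median of 0.17 (range -0.12 to 0.49), and 6 of 7 stood above the median of all genes, with median scaling of the arrays too. This count leans on WT PBS 1, the lowest of the 11 arrays for Hspa5, Hsp90b1, Pdia3 and Pdia6. Without that array Hsp90b1 differed by -0.30, and Pdia6 fell below zero as Hspa5 did. Other probes gave -0.17 for Pdia6 and -0.09 for Pdia5, so the count depends on the probe taken for these genes.

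**Figure D1:**
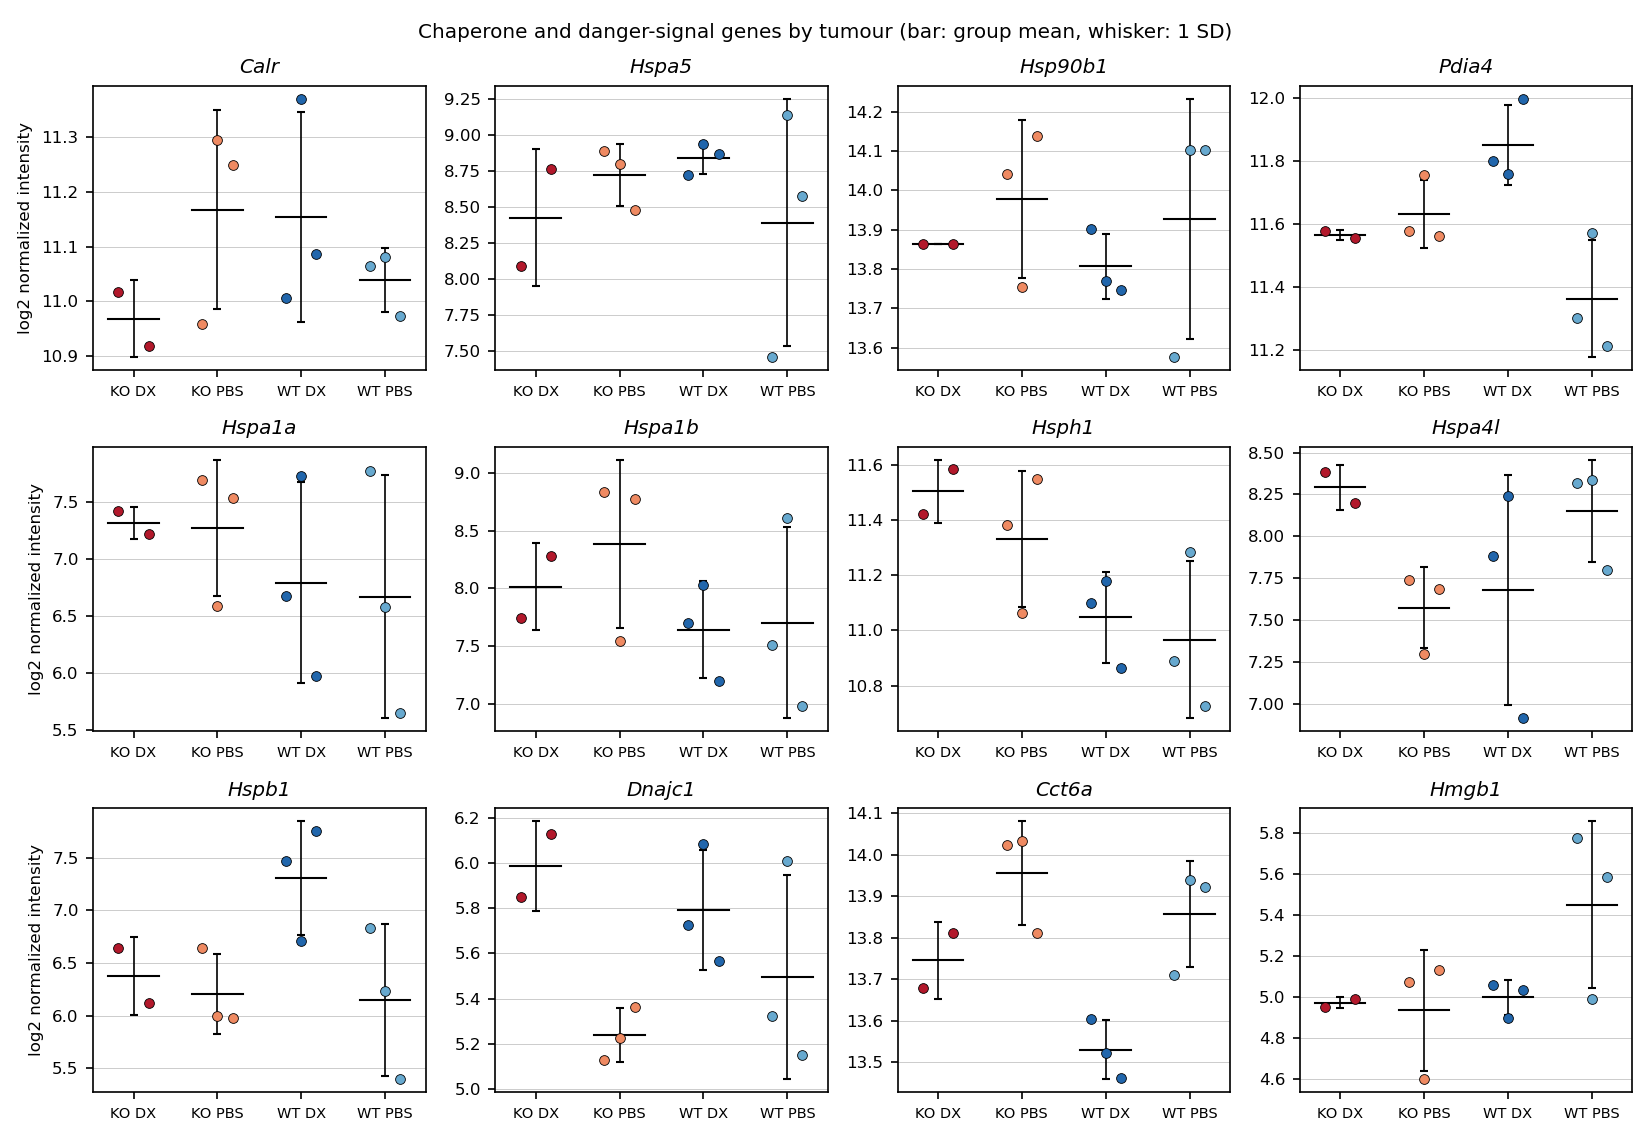
Log2 normalized intensity (vertical axes, 1 scale per gene) of 12 members in the KO DX, KO PBS, WT DX and WT PBS groups. Points are arrays, bars are group means and whiskers 1 SD. Pdia4 in the WT DX tumours, at 11.76 to 12.00, lies above the 11.21 to 11.57 of the WT PBS tumours, while Hspa1a ranges widely within each group of 3.

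Small heat shock proteins hold unfolding chains without using ATP, and several are abundant in muscle. Hspb1 had 7.47, 6.70 and 7.75 in WT DX tumours, against 6.83, 6.23 and 5.40 in WT PBS tumours. WT DX 1 and 3 stood above every PBS tumour, and WT DX 2 lay just below WT PBS 1. The difference was 1.15, a fold of 2.23 (SE 0.366, interval 0.35 to 1.96), with a limma p of 0.00913 and an adjusted p of 0.237. It was 0.78 without WT PBS 3, 0.93 without WT DX 3, 1.49 without WT PBS 1, and 2.35 between the 2 arrays of 1 chip. With array weights the adjusted p of the 1.60 difference was 0.0253.

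Skeletal muscle markers, among other marker lists, were also higher in WT DX than in WT PBS tumours. The mean log2 level of the 17 measured muscle genes, of 20 listed, was 9.22, 8.15 and 8.64 in WT DX tumours, against 7.88, 7.53 and 7.23 in WT PBS tumours, and it was 7.49 and 6.91 in KO DX tumours, against 7.38 to 7.43 in KO PBS tumours. Their summed intensity was 13958 to 27191 in WT DX tumours, against 6293 to 10212 in WT PBS tumours. Every muscle mean in WT DX tumours lay above that of every other array, and 13 to 17 of the 17 genes were detected per array. With the muscle mean as a covariate, the Hspb1 difference was -0.01 and that of Pdia4 was 0.43. Since the muscle mean itself was highest in the WT DX tumours, this fit cannot tell muscle content and DX treatment apart. Adipocyte markers averaged 7.47 to 8.72 in WT DX tumours, against 6.70 to 7.35 in WT PBS tumours. Neutrophil markers averaged 8.39 to 9.18, against 6.92 to 7.35. Keratinocyte markers ranged from 6.94 to 8.48 in WT DX tumours and from 6.52 to 7.06 in WT PBS tumours. Red blood cell markers were lower in WT DX tumours, at 8.18 to 9.05, against 9.82 to 11.65. The part of these other cell types in the Hspb1 difference was not tested.

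**Figure D2:**
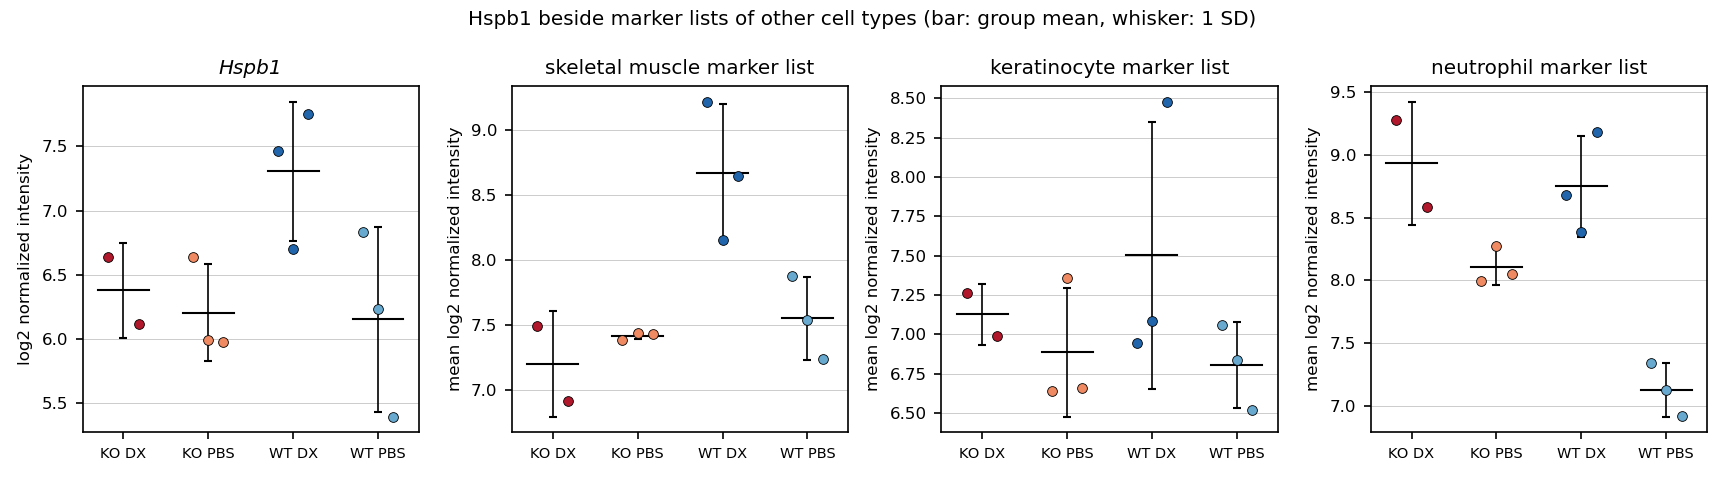
Log2 level of Hspb1 and mean log2 level of the skeletal muscle, keratinocyte and neutrophil marker lists (vertical axes) in the KO DX, KO PBS, WT DX and WT PBS groups, 1 point per array, with bars for group means and whiskers for 1 SD. The muscle mean is highest in the 3 WT DX tumours, at 8.15 to 9.22, which also hold the highest Hspb1 values, with WT DX 2 excepted.

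The other small heat shock proteins were Hspb3, Hspb6 and Hspb8, all known from muscle. Hspb3 was detected on 2 arrays, both WT DX, at 5.61 and 5.59, with WT DX 2 at 5.01. The WT PBS tumours, none above background, measured 5.34, 4.63 and 4.64, and the lowest detected signal of those arrays allowed no fold. Hspb6 differed by 0.19 and Hspb8 by -0.09.

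HMGB1 is a nuclear DNA-binding protein that acts as a danger signal outside the cell. Its gene was read by 1 probe, near the detection limit. A weak probe and a low RNA level cannot be told apart here. Hmgb1 measured 5.06, 4.90 and 5.03 in WT DX tumours, none of them above background, against 5.77, 4.99 and 5.59 in WT PBS tumours, of which WT PBS 1 and 3 were detected. WT PBS 2 lay among the DX values. WT PBS tumours were at least 1.09-fold higher, counting the undetected group at the lowest detected signal of its arrays, and the fitted difference of -0.45 had an adjusted p of 0.425. Hmgb1 met the detection rule through WT PBS tumours alone, the group in which it was high, so its differences from that group describe that choice and support nothing.

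The inducible cytosolic Hsp70 genes, classical targets of heat shock factors, showed no shared shift. Hspa1a had 6.67, 7.72 and 5.97 in WT DX tumours, against 7.77, 6.57 and 5.65 in WT PBS tumours. Hspa1b had 7.70, 8.03 and 7.20 in WT DX tumours, against 7.51, 8.60 and 6.98 in WT PBS tumours. The DX and PBS tumours overlapped for both genes, and the PBS tumours spanned the DX tumours for Hspa1b. The differences were 0.12 (SE 0.534, interval -1.05 to 1.30) and -0.06 (SE 0.433). The Hspa1a interval leaves a 2-fold change in either direction undetectable here. The paralogs are near-identical in sequence, so how far their probes separate them is uncertain.

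Constitutive Hsc70 was far steadier. Hspa8 had 14.33, 14.27 and 14.25 in WT DX tumours, against 14.38, 14.11 and 14.30 in WT PBS tumours. Its difference was 0.02 (interval -0.24 to 0.27). Hsph1, an Hsp110 exchange factor for Hsp70, differed by 0.08, Hsp90aa1, the inducible cytosolic Hsp90, by 0.07, and Dnajb1, the J-domain partner of inducible Hsp70, by -0.03. The transcription factor gene Hsf2 differed by -0.06, while its other probe gave 0.40. Hspa4l, a testis-enriched Hsp110 relative, differed by -0.47 (adjusted p = 0.578), and by -0.09 without WT DX 3.

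Hspa12b, a distant Hsp70 relative of endothelial cells, had 8.24, 8.23 and 7.74 in WT DX tumours, against 8.61, 8.38 and 8.44 in WT PBS tumours. All DX values were below all PBS values. The difference was -0.41 (SE 0.172, adjusted p = 0.390). Endothelial markers averaged 7.37 to 8.02 in WT DX tumours and 7.36 to 7.81 in WT PBS tumours.

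Among the 7 CCT members, 6 differed by less than zero in WT hosts, from -0.52 for Cct5 to 0.05 for Cct2, with a median of -0.13. Cct6a had 13.60, 13.52 and 13.46 in WT DX tumours, against 13.71, 13.94 and 13.92 in WT PBS tumours. No DX value reached a PBS value, and the difference was -0.33 (SE 0.125, adjusted p = 0.333). Another probe of Cct6a gave -0.00, so its probes did not share the shift. Both as reported and with median scaling, 1 of the 7 CCT members stood above the median of all genes.

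The 31 J-domain members, which recruit Hsp70 to its substrates, were spread evenly, with 16 above zero and a median of 0.00 (range -0.31 to 0.60). The largest was Dnajb4, at 7.64, 7.50 and 7.54 in WT DX tumours, against 5.94, 7.95 and 7.0 in WT PBS tumours. The PBS values enclosed the DX values, and the difference was 0.60 (SE 0.461, adjusted p = 0.655). Without both arrays of the dim chip it was 0.09. The mitochondrial chaperones Hspa9, Hspd1 and Hspe1 differed by -0.15, -0.07 and -0.20.

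**Figure D3:**
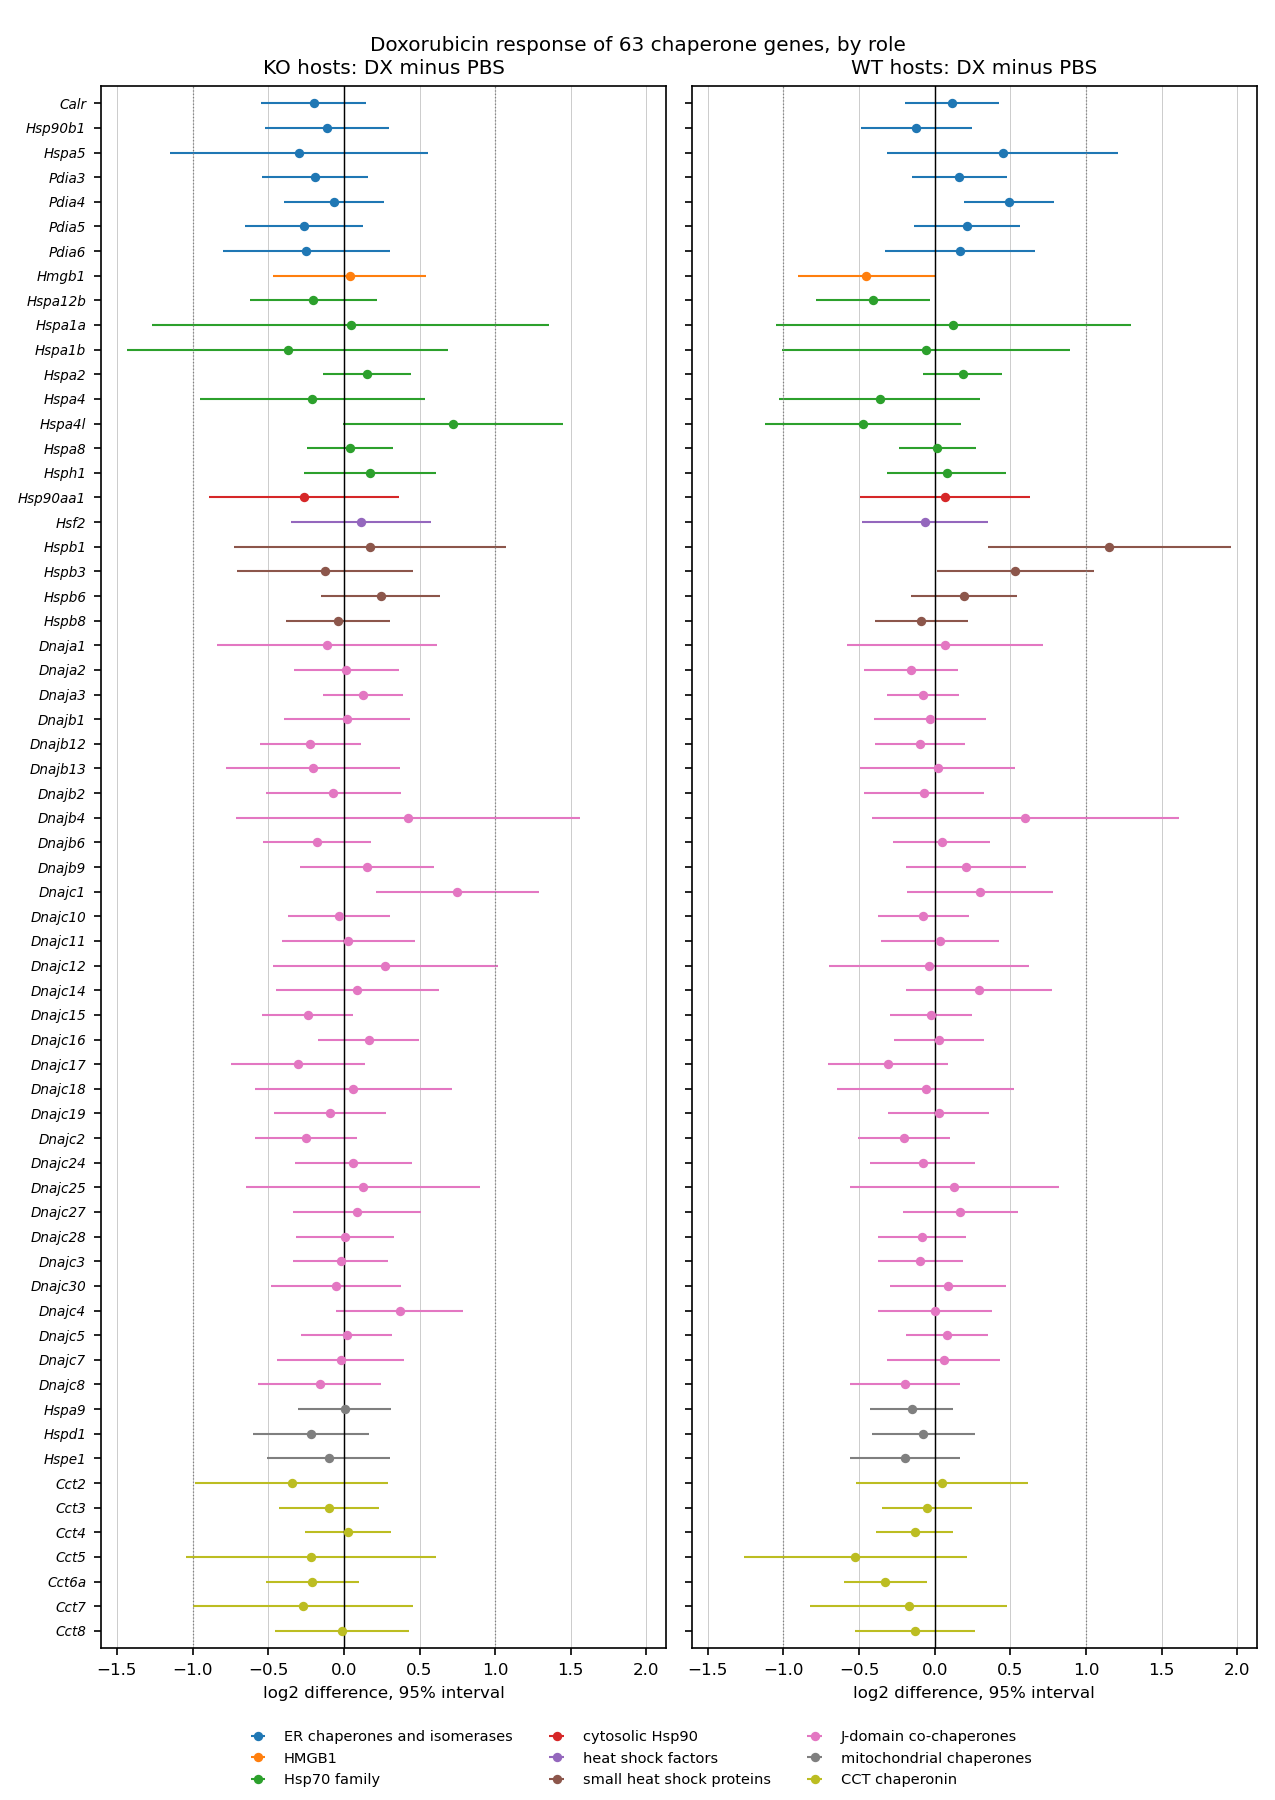
Log2 difference, DX minus PBS, of the 63 members ordered by role, in KO hosts (left) and WT hosts (right). Points are limma estimates, lines 95% intervals and dotted lines mark a log2 difference of 1 either way. In WT hosts Hspb1 at 1.15 is the only estimate past that line, and in KO hosts none is.

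In KO hosts, DX tumours differed from PBS tumours by most for Dnajc1, an ER J-domain protein, and Hspa4l. All 7 ER members, calreticulin included, stood below zero. None of the 63 members had a limma adjusted p under 0.05, as did 0% of all genes, and 1 had an unadjusted p under 0.05, against 5.36% of all genes. The 2 DX and 3 PBS tumours did not overlap for 12 members, against 27.0% of all genes. The median was -0.03 over members and -0.01 over all genes. The 95% interval lay within 1 log2 of zero for 54 members, 85.7%, against 88.4% of all genes. With 2 DX tumours on 1 chip and the PBS tumours on 3 others, chip and treatment could be set apart only through WT arrays.

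Dnajc1 had 5.85 and 6.13 in KO DX tumours, both detected, against 5.13, 5.23 and 5.36 in KO PBS tumours, none detected. KO DX tumours were thus at least 1.5-fold higher, counting the PBS tumours at the lowest detected signal of their arrays, where the measured means were 5.99 and 5.24. The fitted difference was 0.75 (SE 0.245, limma adjusted p = 0.718), the only one in KO hosts with an unadjusted p under 0.05. The third array of that chip, WT PBS 2, was also high at 6.01 and detected, and WT PBS 1 and 3 at 5.32 and 5.15 were not. With the chip as a fixed block the difference was -0.04.

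Hspa4l had 8.39 and 8.20 in KO DX tumours, against 7.74, 7.29 and 7.68 in KO PBS tumours. Both DX values lay above all PBS values. The difference was 0.72 (SE 0.330, interval -0.01 to 1.45, adjusted p = 0.933), and 0.62 with the chip as a block.

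Calr had 11.02 and 10.92 in KO DX tumours, against 10.96, 11.29 and 11.25 in KO PBS tumours. The first PBS tumour lay between the DX tumours, and the other 2 lay above both. The difference was -0.20 (SE 0.157, interval -0.54 to 0.15, adjusted p = 0.975). Hspa5 had 8.09 and 8.77 in KO DX tumours, against 8.89, 8.80 and 8.48 in KO PBS tumours. KO DX 1 was the lowest of the 5 tumours and KO DX 2 lay among the PBS values, with a difference of -0.29 (SE 0.388), or 0.04 without KO DX 1 and -1.36 with the chip as a block. Pdia4 had 11.58 and 11.55 in KO DX tumours, against 11.58, 11.76 and 11.56 in KO PBS tumours. These overlapped, and the difference was -0.07 (SE 0.151, interval -0.40 to 0.27), or -0.43 with the chip as a block.

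The ER members had a median of -0.20 in KO hosts (range -0.29 to -0.07). With median scaling, which moved the median of all genes to 0.17 in this contrast, 2 of 7 stood above zero, but 0 of 7 above the median of all genes. Another probe of Pdia6 gave 0.05, where the one used gave -0.25. The 5 members with the ER stress element lay between -0.29 and -0.02 in KO hosts and between -0.12 and 0.45 in WT hosts. The 3 with the heat shock element lay between -0.22 and -0.10 in KO hosts and between -0.20 and 0.05 in WT hosts.

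Cytosolic members in KO hosts differed by 0.04 for Hspa1a, -0.37 for Hspa1b, 0.04 for Hspa8, 0.17 for Hsph1, -0.26 for Hsp90aa1 and 0.02 for Dnajb1. With the chip as a fixed block Hspa1b differed by -1.51 (limma adjusted p = 0.517) and Hsp90aa1 by -0.98 (adjusted p = 0.501). Leaving out 1 array gave -0.79 (without KO PBS 2) to -0.11 (without KO DX 1) for Hspa1b and -0.38 (without KO DX 2) to -0.09 (without KO PBS 1) for Hsp90aa1. Hspb1 had 6.64 and 6.12 in KO DX tumours, against 6.64, 6.00 and 5.98 in KO PBS tumours. These overlapped, with a difference of 0.17 (SE 0.409, interval -0.73 to 1.07). The only Hmgb1 probe was detected on no KO array. CCT members had a median of -0.21, with 1 of 7 above zero. With median scaling 1 of 7 stood above the median of all genes. J-domain members had a median of 0.01, with 17 of 31 above zero, and the mitochondrial Hspd1 and Hspe1 differed by -0.22 and -0.10.

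The difference between the DX responses of the KO and WT hosts asked whether the host's receptor went with another chaperone response. By limma, 0 of 63 members passed, as did 0% of all genes, and 2 had an unadjusted p under 0.05, against 4.69% of all genes. Those were Hspa4l at 1.19 (SE 0.443, interval 0.22 to 2.17, adjusted p = 0.970) and Pdia4 at -0.56 (SE 0.202, interval -1.0 to -0.11, adjusted p = 0.956). Both combine the values given above, in which Hspa4l stood higher with DX in KO hosts and lower in WT hosts, and Pdia4 stood higher with DX in WT hosts alone, a contrast that did not pass its test.

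For ER members this difference had a median of -0.41, and 6 of 7 lay below zero. WT PBS 1, the lowest of the 11 arrays for Hspa5, Hsp90b1, Pdia3 and Pdia6, enters each of these values. With median scaling, 0 of 7 stood above the median of all genes, the count also found without it. The median is the value of Pdia6, whose other probe gave 0.22. It was -0.31 for Calr (SE 0.211, interval -0.78 to 0.15), -0.75 for Hspa5 (SE 0.521), -0.48 for Pdia5, -0.35 for Pdia3, -0.41 for Pdia6 and 0.01 for Hsp90b1. For Hspb1 it was -0.98 (SE 0.549, interval -2.19 to 0.23). The precision was low here, since the interval lay within 1 log2 of zero for 43 of 63 members (68.3%, against 70.1% of all genes).

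Between KO and WT hosts given PBS, no chaperone gene passed the limma test (0.00941% of all genes did), and 1 of 63 had an unadjusted p under 0.05, against 5.48% of all genes. That was Hmgb1, at 5.07, 4.60 and 5.13 in KO PBS tumours, none detected, against 5.77, 4.99 and 5.59 in WT PBS tumours. WT PBS tumours were at least 1.03-fold higher, in a gene that entered through that group. The groups did not overlap for Dnajc4 and Hspa4l, both lower in KO hosts, 2 of 63 members, against 4.48% of all genes that were lower and 9.38% in either direction. The interval lay within 1 log2 of zero for 57 members, 90.5%, against 92.7% of all genes. Hspa4l in KO PBS tumours, at 7.29 to 7.74, was below the 8.32, 8.34 and 7.80 of WT PBS tumours, a difference of -0.58 (adjusted p = 0.990). All 7 ER members stood above zero, with a median of 0.27 (range 0.05 to 0.37), and 7 of 7 stood above the median of all genes, with median scaling too. That count leans in part on WT PBS 1, the lowest of the 11 arrays for Hspa5, Hsp90b1, Pdia3 and Pdia6. For Hspa5, KO minus WT was 1.34 on chip 2, which held WT PBS 1, and -0.10 on chip 5. On the same chips Hsp90b1 differed by 0.18 and 0.04, Pdia3 by 0.40 and 0.34, and Pdia6 by 0.68 and 0.63. The Hsp90b1 mean of 13.98 in KO PBS tumours lay below the 14.10 of both WT PBS 2 and WT PBS 3. Calr differed by 0.13 (interval -0.18 to 0.44), 0.23 on chip 2 and 0.28 on chip 5, and Pdia4 by 0.45 and 0.35 on these chips.

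Between KO and WT hosts given DX, 0 of 63 members passed, as did 0% of all genes, and 3 had an unadjusted p under 0.05, against 6.70% of all genes. The groups did not overlap for 16 members, against 27.1% of all genes, and the interval lay within 1 log2 of zero for 53 members, 84.1%, against 87.8%. Hsph1 had 11.42 and 11.58 in KO DX tumours, against 11.10, 11.18 and 10.86 in WT DX tumours. Both KO values were above all WT values, with a difference of 0.46 (SE 0.199, interval 0.02 to 0.90, adjusted p = 0.719). The KO DX arrays shared a chip that held no WT DX array, so this contrast had no comparison within a chip. In the authors' chip-adjusted table the Hsph1 gap was narrower, at 11.15 and 11.30 in KO DX tumours, against at most 11.12 in WT DX tumours. Hsph1 did not pass in this contrast of that table, where 37 of 63 members did. Averaged over DX and PBS, 0 of 63 members passed for genotype (0.0377% of all genes did), 1 had an unadjusted p under 0.05 (7.22% of all genes did), and 60 intervals lay within 1 log2 of zero (95.2%, against 97.8%). That 1 was Hsph1, with an averaged KO minus WT difference of 0.41 (SE 0.134, limma adjusted p = 0.522). Hspa5 and Hspa9 were counted with the ER and mitochondrial members. The other 8 Hsp70-family members all stood above zero in KO DX against WT DX tumours, with a median of 0.32 (range 0.01 to 0.61). Of these 8, 7 stood above the median of all genes, 8 with median scaling and 6 with the chip as a fixed block. Hspa5 went the other way, with means of 8.43 in KO DX and 8.84 in WT DX tumours. All 7 CCT members also stood above zero in this contrast, with a median of 0.17. In the authors' chip-adjusted table Cct7 and Cct8 averaged lower in KO DX than in WT DX tumours, and the other CCT members higher.

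Hspb1, at 6.64 and 6.12 in KO DX tumours, was below the 7.47, 6.70 and 7.75 of WT DX tumours, with a difference of -0.93 (SE 0.409, interval -1.83 to -0.03, adjusted p = 0.724). The muscle markers, at 6.91 and 7.49 in KO DX tumours and 8.15 to 9.22 in WT DX tumours, differed the same way. Hspb3 was undetected in KO DX tumours, at 4.73 in both, and WT DX tumours, the group through which it met the detection rule, were at least 1.07-fold higher, which is a description only. Pdia4 in KO DX tumours, at 11.55 and 11.58, lay below the 11.76 to 12.00 of WT DX tumours, a difference of -0.29 (SE 0.151, adjusted p = 0.803). Calr differed by -0.19 (interval -0.53 to 0.16, adjusted p = 0.868). Of the 7 ER members, 1 stood above the median of all genes, and 0 with median scaling or with the chip as a fixed block.

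Averaged over both genotypes, 0 of 63 members passed for DX against PBS (0.537% of all genes did), and 5 had an unadjusted p under 0.05, against 11.6% of all genes. They were Dnajc1 at 0.52 (adjusted p = 0.254), Hspb1 at 0.66 (adjusted p = 0.384), Cct6a at -0.27 (adjusted p = 0.301), Hspa12b at -0.30 and Dnajc17, a J-domain protein of the nucleus, at -0.31. With both genotypes together, 61 of 63 intervals (96.8%, against 96.5% of all genes) lay within 1 log2 of zero.

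Other genes of the same pathways gave the setting. Of 29 measured co-chaperones and heat shock response genes, 0 passed in either host, with medians of -0.06 in KO hosts and -0.04 in WT hosts. Of all genes, 0% passed in KO hosts and 0.621% in WT hosts. Cryab, a small heat shock protein of muscle and lens, differed by 0.08 in KO hosts and by 1.04 in WT hosts (SE 0.296, adjusted p = 0.193). Of 27 measured unfolded protein response genes, 0 passed, and 10 stood above zero in KO hosts and 20 in WT hosts, each host's DX tumours set against its own PBS tumours. Of all 10623 genes, 5172 stood above zero in KO hosts and 4781 in WT hosts. The 4 with the smallest p in WT hosts were Trib3, a pseudokinase induced by ATF4, Sesn2, a stress-induced sestrin, Sdf2l1, an ER chaperone cofactor, and Ddit3, which encodes CHOP. Trib3 differed by -0.31 in KO hosts and by -0.71 in WT hosts (adjusted p = 0.0753), and Sesn2 by -0.50 in KO hosts and 0.63 in WT hosts. Sdf2l1 differed by -0.34 in KO hosts and 0.62 in WT hosts, and Ddit3 by -0.10 in KO hosts and 0.33 in WT hosts. Of 22 measured genes of calreticulin exposure and the sensing of dying cells, 0 passed in KO hosts and 1 in WT hosts, against 0% and 0.621% of all genes. That was Il1b, an inflammasome product, which differed by 0.14 in KO hosts and rose by 1.28 in WT hosts (SE 0.222, adjusted p = 0.0319). The difference between the responses of -1.15 had an adjusted p of 0.713. Il1b was already higher in KO PBS tumours, at 11.26 to 11.69, than in WT PBS tumours, at 10.43 to 10.67. Both KO DX tumours lay within the 11.37 to 12.31 of WT DX tumours. Neutrophil markers averaged 8.39 to 9.18 in WT DX tumours and 6.92 to 7.35 in WT PBS tumours. In KO hosts they averaged 8.59 to 9.28 in DX tumours and 7.997 to 8.275 in PBS tumours. The part of neutrophils in the Il1b values was not tested.

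The log2 table that the authors deposited gave far more calls on the same members. Fitted by limma as the intensities were, it called 34 of 63 members for DX in KO hosts (13 higher and 21 lower, against 47.8% of all genes) and 28 of 63 in WT hosts (13 higher and 15 lower, against 51.3%). In the authors' deposited table the DX minus PBS difference of Calr was -0.32 in KO hosts (limma adjusted p = 0.000447) and 0.16 in WT hosts (adjusted p = 0.01). In the same authors' deposited table that of Pdia4 was -0.42 in KO hosts and 0.73 in WT hosts, both past the threshold. The median SD within groups over members was 0.0689 in that table, against 0.209 in the normalized intensities.

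Its columns for WT DX 2 and WT PBS 2 equalled the mean of replicates 1 and 3 of their group, within 1e-04, for 100% of 19215 probes. WT DX 2 was the only array of its chip, and WT PBS 2 shared its chip with the KO DX tumours, which lay on no other chip. When the log2 of quantile normalized intensities had the chip removed with the group means kept (removeBatchEffect in limma), the same 2 columns became the mean of their replicates for 100% of probes. The deviations from each probe's mean then correlated with the table's at r = 0.9999 over all probes and 11 arrays, with a median absolute difference of 0.00157 log2, against r = 0.634 and 0.0741 before removal. To that tolerance, the table held intensities adjusted for chip.

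A fit of the adjusted values counts 7 residual degrees of freedom, whereas a fit that estimates the chips itself has 3. On the same quantile normalized values, without background correction, that second fit called 0 members in KO hosts and 1 in WT hosts, Pdia4, against 1 and 386 of the 10623 genes. It gave Calr the same differences, -0.32 in KO hosts with a limma adjusted p of 0.562 and 0.16 in WT hosts with 0.521. Calr thus passed in the fit that left the chip terms uncounted and not in the fit that counted them.

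The 2 subunits of the mitochondrial folding chamber, HSP60 (Hspd1) and HSP10 (Hspe1), share the promoter bases shown above and moved together from tumour to tumour. This pair was chosen after its values were seen, as 1 of 3 pairs computed. Hspd1 had 13.24 and 13.44 in KO DX tumours, 13.67, 13.42 and 13.58 in KO PBS tumours, 13.35, 13.33 and 13.13 in WT DX tumours, and 13.06, 13.57 and 13.40 in WT PBS tumours. Hspe1 had 11.54 and 11.74 in KO DX tumours, 11.76, 11.68 and 11.78 in KO PBS tumours, 11.56, 11.42 and 11.38 in WT DX tumours, and 11.28, 11.94 and 11.73 in WT PBS tumours. WT PBS 1 was lowest for both genes, and the groups overlapped.

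Over the 11 tumours, Pearson's r of Hspd1 and Hspe1 was 0.897 and Spearman's rho 0.945. These values are a description with no test, since the genes were picked with their values known. Among all 1953 pairs of members r was at least as high in 1, that pair itself, and the median r was -0.01. Without the 2 tumours farthest from the median of Hspd1, r was 0.895 over 9, and r of the deviations from the group means was 0.923. No chip held enough arrays for a value within it. Hspa1a and Hspa1b gave r = 0.603 and rho = 0.445, which rested on 2 tumours, since r was 0.171 without them. Hspa5 and Hsp90b1 gave r = 0.454 and rho = 0.0776, with r = -0.259 without the 2 farthest tumours.

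**Figure D4:**
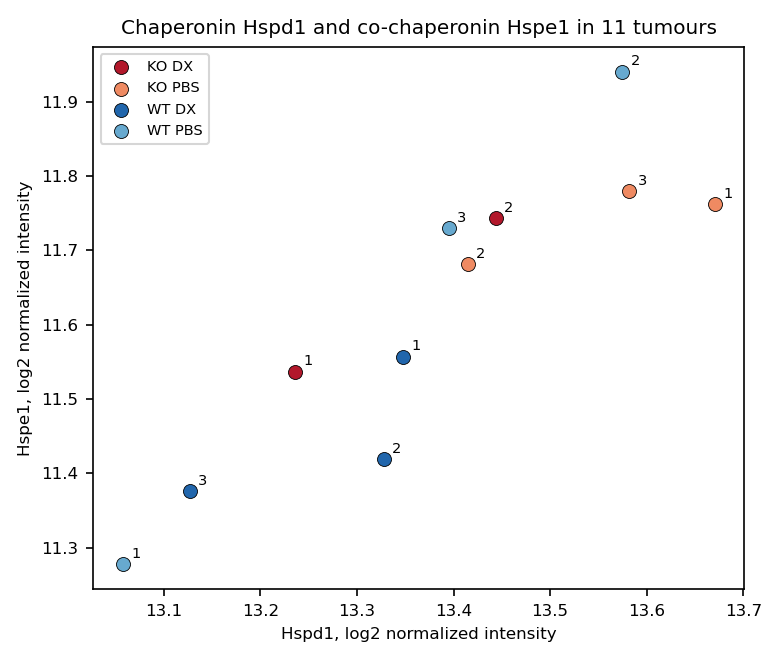
Log2 normalized intensity of Hspd1 (horizontal axis) and Hspe1 (vertical axis) in the 11 tumours, coloured by group with the replicate number beside each point. The points rise together, r = 0.897, and WT PBS 1 lies at the low end at 13.06 and 11.28.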

How the data were processed

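The authors deposited linear, non-normalized intensity values of 45281 probes on 11 arrays with a detection p-value beside each, per the file headers, and a log2 table of 19215 probes. The submitters' processing notes name Partek, and further steps are not given in the sources used here. Values were normalized in R 4.3.3 by the neqc function of limma 3.58.1: background estimated through the detection p-values, offset 16, quantile normalization, log2. Probes with detection p under 0.05 on 2 or more arrays were kept (20433), the brightest per gene. A single limma fit (lmFit, eBayes) with a mean for each of the 4 groups gave 7 contrasts, with 7 residual and 4.04 prior degrees of freedom and Benjamini-Hochberg adjustment over 10623 genes at 0.05. The fit was tested on simulated data.

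Gene symbols came from the platform annotation supplied with the table, promoters from RefSeq. The members, lists and tests were chosen with earlier results of these data known. The rule named 15 members of known role, the 4 with the smallest p in each direction of each contrast, the 5 most variable and those whose probes differ in sign. Other members stand for their role and were chosen after their values were seen. The labels stated no pairing by replicate number. Deviations of same-numbered samples correlated at -0.291 to 0.304, and those of differently numbered samples at -0.304 to 0.272. With so few samples a group, these values cannot show whether samples were paired. Alternatives changed the background correction, scaling, filter, probe rule, chip and replicate blocks, array weights, moderation, a muscle covariate and each array left out in turn.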

Additional observations from a re-analysis of the deposited data

Results flagged for a closer look

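Dnaja3, a mitochondrial J-domain protein, had 2 kept probes, and on the brighter one its tumours moved opposite ways in the 2 genotypes. It had 11.98 and 11.95 in KO DX tumours, both above the 11.83, 11.92 and 11.75 of KO PBS tumours. It had 11.80, 11.83 and 11.78 in WT DX tumours, all below the 11.88, 11.91 and 11.86 of WT PBS tumours. The difference between the DX responses was 0.20 (SE 0.162, interval -0.15 to 0.56), and limma's test of that difference did not pass, at an adjusted p of 0.993. The other probe turned every sign, with DX minus PBS at -0.08 in KO hosts and 0.08 in WT hosts, where the brighter one gave 0.13 and -0.08, and with a difference between the responses of -0.17. With 2 or 3 tumours a group, no single tumour could be tested as an outlier.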

How the results depend on the processing

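No member passed in any of the 7 contrasts under no background correction, median scaling, no filter, a stricter filter, the mean of a gene's probes, trend and robust moderation, the chip as a fixed or random block with background corrected, the replicate block, the muscle covariate, only the groups of the contrast (run for the 4 contrasts of 2 groups), or without the dim chip, and leaving out each array in turn gave 0 to 0. Array weights called 2 members in WT hosts, where they called 363 of all 10623 genes. The authors' deposited table called 34 members for DX in KO hosts (47.8% of all genes), 28 in WT hosts (51.3%), 35 for the difference (55.7%), 20 for genotype in PBS (24.1%), 37 in DX (55.8%), 35 for the averaged DX (43.0%) and 17 for the averaged genotype effect (32.6%). Without its 2 averaged columns it called 31 (34.8%), 15 (25.9%), 25 (38.2%), 5 (3.96%), 26 (39.8%), 19 (21.9%) and 4 (11.6%), in that order. The chip block without background correction called 1 in WT hosts and 1 for averaged DX (Hspb6). The share of all genes for that averaged contrast is not given here, so the Hspb6 call is a description only. The table without averaged columns, the fit without the dim chip and this last fit were chosen after seeing the data.

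The median member difference with median scaling was 0.129 in KO hosts, 0.068 in WT hosts, 0.085 for the difference, 0.108 for genotype in PBS and 0.189 in DX, where the medians of all genes were 0.167, 0.031, 0.132, 0.073 and 0.202. It was -0.069 in KO hosts and -0.053 for the difference in the authors' table, with and without its averaged columns, -0.075 and -0.057 with the chip block, and -0.068 and -0.053 with the chip block and no background correction. It was -0.0785 for the difference with the mean of probes, -0.038 in DX with array weights, -0.0605 for the difference and 0.078 in DX with the muscle covariate, and -0.091 in KO hosts and -0.0029 in PBS without the dim chip. Leaving out 1 array gave medians of -0.091 to -0.023 in KO hosts, -0.045 to 0.005 in WT hosts, -0.042 to 0.010 for the difference, 0.0021 to 0.067 in PBS and -0.044 to 0.051 in DX.

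Of the members called in the authors' deposited table, 7 in KO hosts, 1 in WT hosts, 6 for the difference, 2 for genotype in PBS, 12 in DX, 3 for the averaged DX and 1 for the averaged genotype effect had the other sign than in the intensities. Those among the named members, which were followed for the DX contrasts, were Dnajb4 (-0.42), Dnajc10 (0.23) and Dnajc19 (0.33) in KO hosts, Dnajc19 (-0.12) in WT hosts, and Dnajb4 (-0.11), Dnajc10 (0.0946) and Dnajc19 (0.10) averaged over genotypes. The cause was not tested. Of 2714 values of named members under alternatives, 242 had the other sign and 110 passed the threshold. The replicate block, which the labels do not tie to animals, called 0 members, with medians of -0.06 in KO hosts, 0.01 for the difference and 0.04 in DX. Signal over background limits Hmgb1, Dnaja1 and Hspb3, detected on 2 arrays each.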
